A study of Mus musculus with 21 samples.

Results

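Fads3, Cldn13, Sphk1 and Arhgef25 are 4 mouse genes that are seldom named in accounts of red cell formation and that were picked because each changed greatly on entering or leaving the CFUe stage. They were found on the arrays through RefSeq accessions, as 4 of 18217 genes with a symbol and 6 of 41174 probes, and each gene was followed on its brightest probe. The 4 brightest probes all belonged to the 29538 that were tested, a set that required a signal well above background throughout the 3 arrays of some fraction. The choice used the steps into and out of CFUe, and so the values in PreMegE and Ter119 as well. Every difference of the 4 genes that involves CFUe, PreMegE or Ter119 is therefore given as a description. Tests are given among KLS, PreGM, GMP and Mac1Gr1. CFUe was also compared with KLS and with GMP, and those changes may have entered the choice too. Each test holds KLS or GMP arrays, so that its p-value may not be independent of the choice. Of the 4, 3 were highest in CFUe, as were 24.9% of all tested probes, whereas Cldn13 was as high in the next stage, except under spike-in scaling, where it too was highest in CFUe.

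Transcript levels were measured on 21 arrays of 1 colour, 3 for each of 7 fractions that had been sorted out of C57BL/6 mouse bone marrow. KLS (lin- ckit+ sca1+) holds multipotent cells. The erythroid path runs through PreMegE (CD150+ CD105-, the erythroid and megakaryocyte precursor), CFUe (CD150- CD105-, colony-forming erythroid progenitors) and Ter119 (CD71+ Ter119+, erythroblasts), and the myeloid path through PreGM (CD150- CD105-), GMP (CD150- FCGrI/II+) and Mac1Gr1 (Mac1+ Gr1+, maturing granulocytes). PreMegE, CFUe, PreGM and GMP are all listed as lin- ckit+ sca1+, and CFUe and PreGM carry the same antigens in the labels, so that fractions were taken by name. No treatment, genotype or age is listed, and nothing says whether replicates came from separate mice, so that p-values may cover technical spread alone. A level here is a log2 intensity from which the array's own 75th percentile was taken off, so that 0 equals that percentile. Levels of different probes cannot be set against each other.

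The fractions carried their own markers, with additions that touch the results. The summed linear level of 13 erythroid markers was 447 to 457 in CFUe, 1624 to 1991 in Ter119 and 12.3 to 14.7 in PreGM, which told CFUe and PreGM apart. The 12 granulocytic markers summed to 5174 to 6394 in Ter119, close to the 5823 to 6565 in Mac1Gr1, and 9 B cell markers reached 152 to 209 in Ter119 against 32.4 to 54.8 in Mac1Gr1. On the CFUe arrays the granulocytic sum was 6.27, 5.72 and, on replicate 3, 42.3. The 12 macrophage markers summed to 38.3 to 106 in KLS. Arrays also differed in the sex chromosome transcripts they carried. Ddx3y, which is Y-linked, lay at 1.17 to 1.93 on all KLS, PreMegE and Ter119 arrays and on replicate 3 of CFUe and of PreGM, and at -7.73 to -6.17 on the other 10. Xist, made from the inactive X, lay at 3.90 to 5.61 on those 10 and at -7.47 to -4.47 on the rest. GMP and Mac1Gr1 held Xist arrays alone, so that sex and fraction cannot be told apart between them and KLS, PreMegE or Ter119.

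The erythroid path leads from progenitors that divide in response to erythropoietin to erythroblasts that fill with haemoglobin, rebuild their membrane and lose most other transcripts. Sphingolipids are made from a sphingoid base and a fatty acid, and sphingosine 1-phosphate, one of their products, signals through receptors on blood and vessel cells. Sphk1 encodes a kinase that makes sphingosine 1-phosphate, and Fads3 a front-end desaturase of the Fads family that acts on sphingoid bases. Cldn13 belongs to the claudins, membrane proteins best known from tight junctions, and Arhgef25 encodes a guanine nucleotide exchange factor of small GTPases that acts downstream of the G protein alpha subunit Gq.

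Fads3 had the largest rise into CFUe of the 4 genes, after a dip in PreMegE. Its levels were -0.42, -0.63 and -0.65 on the KLS arrays, -4.06, -4.34 and -4.22 in PreMegE, 2.56, 2.92 and 2.26 in CFUe and -0.09, 0.18 and 0.24 in Ter119. On the myeloid path they were -0.45, -0.36 and -0.59 in PreGM, -4.06, -3.97 and -3.37 in GMP and -4.16, -3.88 and -3.63 in Mac1Gr1. CFUe thus stood above every other array, Ter119, PreGM and KLS formed a middle group, and PreMegE, GMP and Mac1Gr1 lay at the bottom, with overlap among those 3 between neighbours in the order. All 21 arrays were well above background for this probe.

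Between PreMegE (mean -4.21 ± 0.14, SD, n = 3) and CFUe (2.58 ± 0.33) Fads3 differed by 6.79 on the log2 scale, or 111-fold, and from CFUe to Ter119 (0.11 ± 0.18) it fell by 2.47 on the log2 scale. This placed it 4th among the rises into CFUe over 14318 genes, and 1281st among the falls out of it. The CFUe array with Y-linked transcripts alone stood 6.47 above PreMegE. The choice had no fixed threshold. Among the rises into CFUe, Fads3, Cldn13, Sphk1 and Arhgef25 ranked 4th, 6th, 11th and 109th, so that genes not chosen lay between and above them.

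Before CFUe, Fads3 was 12.5-fold lower in PreMegE than in KLS (difference -3.64 ± 0.19, SE), in a comparison that called 12.4% of all probes. Between KLS and PreGM it differed by 0.10 (adjusted p = 0.771, limma), where 8.64% of probes were called. The fall on the myeloid path came 1 step later, from PreGM to GMP (-3.33 ± 0.19, limma adjusted p = 3.13e-09), and Fads3 did not differ between GMP and Mac1Gr1 beyond the spread of the arrays (-0.09, limma adjusted p = 0.679), although spike-in scaling gave a called -2.12 and normexp 0.72. In Ter119, Fads3 was far above Mac1Gr1 (4.0 ± 0.19, SE) and above KLS by less than 2-fold (0.67), a difference that turned to -1.68 under spike-in scaling. The calls required an adjusted p under 0.05 and at least a 2-fold change.

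The other Fads3 probe followed the same course at lower signal. No PreMegE, GMP or Mac1Gr1 array had it well above background, so that only bounds can be given there. On it, CFUe stood at least 68.7-fold above PreMegE and KLS at least 17.5-fold above PreMegE. A bound sets the bright mean against the mean, over the dim arrays, of the dim signal or the lowest signal called above background, whichever is higher. Where the dim signal is the higher throughout, the bound is the plain ratio. Bounds hold on this scale alone. For Plpp1, Acsl6, Sgms2, Cers6, S1pr5 and Cldn1, given with bounds below, the differences after normexp were smaller.

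**Figure D1:**
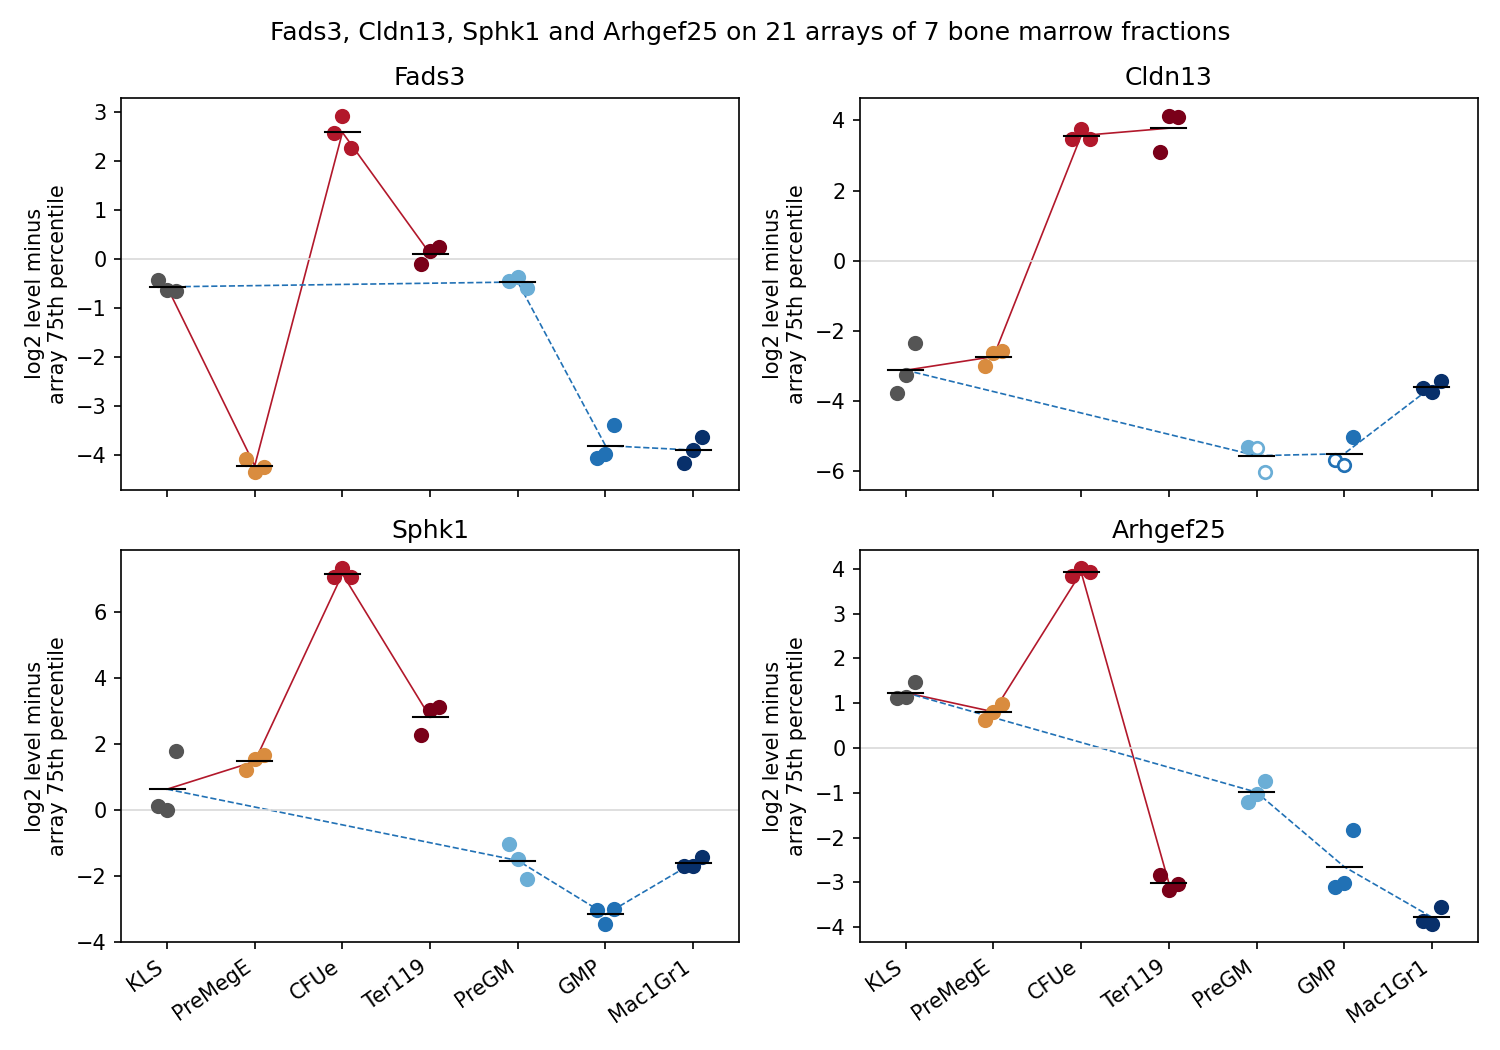
Log2 level minus the 75th percentile of the array (vertical axes) for Fads3, Cldn13, Sphk1 and Arhgef25 on each of 3 arrays in 7 fractions (horizontal axes). Filled points were well above background, open points were not, short bars are fraction means, and the solid and dashed lines join the means of the erythroid and the myeloid path from KLS. Fads3 drops to -4.21 in PreMegE before reaching 2.58 in CFUe, Cldn13 stays at 3.78 in Ter119, and Arhgef25 falls to -3.01 there.

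Fads3 lies beside Fads2 and Fads1 on chromosome 19, and these close relatives, both desaturases of polyunsaturated fatty acids, differed by less. Fads2 was called higher in CFUe than in PreMegE (1.87 ± 0.14, SE, limma adjusted p = 8.10e-09) and lower in Ter119 than in CFUe (-2.81, limma adjusted p = 6.18e-12), so that its mean was also highest in CFUe (1.45 ± 0.11). It did not share the dip, with -0.44 ± 0.09 in KLS and -0.42 ± 0.09 in PreMegE. Fads1 was not called at either step (0.63 and 0.15). On the other side, Rab3il1, an exchange factor for Rab proteins, was not well above background on any PreMegE array, read -2.74 in CFUe and 1.36 in Ter119, and rose between these last (4.10, limma adjusted p = 8.93e-10). The neighbours were chosen by position, after the data had been seen.

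The RefSeq promoter window of Fads3, 250 bases before to 50 after its start at chr19:10041298-10041597 on the plus strand of GRCm38.p6, is shown so that it can be set beside those of Sphk1, which was also highest in CFUe. Capitals mark CCNCNCCC on either strand, overlapping matches included, a pattern of the kind bound by Klf factors.

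Fads3: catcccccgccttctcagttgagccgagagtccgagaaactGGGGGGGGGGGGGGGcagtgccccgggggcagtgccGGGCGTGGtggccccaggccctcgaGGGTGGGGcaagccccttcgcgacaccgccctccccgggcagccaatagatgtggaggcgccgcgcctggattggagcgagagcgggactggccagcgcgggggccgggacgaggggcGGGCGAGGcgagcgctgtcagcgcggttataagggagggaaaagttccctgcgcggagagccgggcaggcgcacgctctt

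This window held 11 matches to CCNCNCCC, 8 of them overlapping within a single run of G, and 73% of its bases were G or C, against a median of 52.7% over 32817 RefSeq windows. At least 1 such match stood in 49.5% of all windows. The forms bound by GATA factors were searched as AGATAA or AGATAG, or as either with T for its first letter, on both strands. None was present here, and 29.8% of all windows held 1 or more. Matches to letters are descriptions and not binding sites.

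Sphk1 had the largest difference between the committed progenitors of both paths among the 4 genes. Its levels were 0.11, -0.01 and 1.80 in KLS, 1.22, 1.54 and 1.66 in PreMegE, 7.07, 7.35 and 7.08 in CFUe and 2.28, 3.05 and 3.12 in Ter119. In PreGM they were -1.04, -1.47 and -2.08, in GMP -3.04, -3.46 and -2.99, and in Mac1Gr1 -1.70, -1.69 and -1.41. The CFUe arrays lay far above all others, the remaining erythroid fractions came next, and the myeloid fractions were lowest, with PreGM and Mac1Gr1 overlapping. KLS replicate 3 stood apart from the other KLS arrays and lay above PreMegE. The erythroid marker list had its highest mean log2 level on that KLS array (-1.15 against -2.07 and -1.47). Its summed linear level was not highest there (42.87 against 36.60 and 42.89). The part of such signal in the Sphk1 value was not tested.

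From PreMegE (1.48 ± 0.23) to CFUe (7.17 ± 0.16) Sphk1 differed by 5.69, or 51.6-fold, and from CFUe to Ter119 (2.82 ± 0.47) it fell by 4.35 on the log2 scale, or 20.3-fold. CFUe exceeded GMP (-3.17 ± 0.26) by 10.33, the 5th largest such excess over 14318 genes. On the CFUe array with Y-linked transcripts alone, the excess over PreMegE was 5.61, and on the CFUe arrays with Xist the excess over GMP was 10.37.

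In comparisons without CFUe, Sphk1 parted at the first step from KLS. It was 4.49-fold lower in PreGM than in KLS (-2.17 ± 0.38, SE, limma adjusted p = 5.33e-04), and lower again in GMP than in PreGM (-1.63, limma adjusted p = 0.00385), a call lost under spike-in scaling (-0.62). PreMegE exceeded PreGM by 3.01 ± 0.38 (SE), in a comparison that called 12% of probes, and KLS by 0.84. Without KLS replicate 3 that last difference was 1.42. In Ter119, Sphk1 was 21.4-fold above Mac1Gr1 (4.42 ± 0.38, SE), although both fractions carried granulocytic markers at similar sums. Mac1Gr1 in turn exceeded GMP (1.57, limma adjusted p = 0.00123), but not under spike-in scaling (-0.47). With a block for sex-chromosome transcripts, estimated from CFUe and PreGM alone, Ter119 exceeded Mac1Gr1 by 4.90.

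The other Sphk1 probe had 1 CFUe spot left out as an outlier and read 4.22 and 3.91 on the remaining CFUe arrays. In GMP it read -5.75 and -5.71 without passing background and -2.07 on replicate 3, so that its GMP mean rests on that array. It was not well above background in Mac1Gr1, and Ter119 stood at least 18.1-fold above that fraction.

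**Figure D2:**
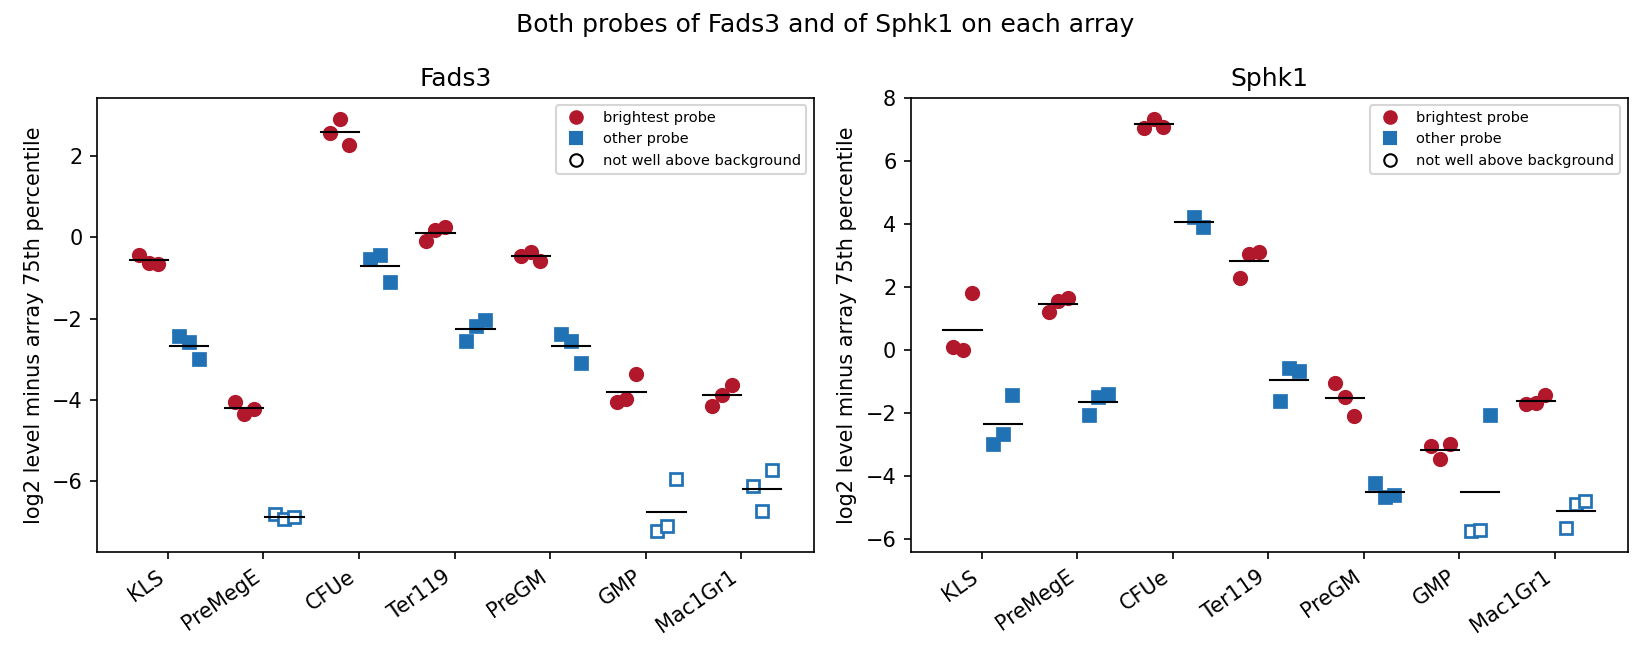
Log2 level minus the 75th percentile of the array (vertical axes) for the brightest probe (circles) and the other probe (squares) of Fads3 and Sphk1 on each array of 7 fractions (horizontal axes), with bars at the means and open symbols where the spot was not well above background. Both probes of each gene are highest in CFUe, and the other Sphk1 probe splits in GMP between -5.75 and -2.07.

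RefSeq gives Sphk1 5 overlapping or nearby starts on chromosome 11, all on the plus strand of GRCm38.p6. The first window, chr11:116530850-116531149, and the last, chr11:116532201-116532500, are printed to set the upstream start beside the downstream ones, with CCNCNCCC and the GATA hexamers in capitals.

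Sphk1, first start: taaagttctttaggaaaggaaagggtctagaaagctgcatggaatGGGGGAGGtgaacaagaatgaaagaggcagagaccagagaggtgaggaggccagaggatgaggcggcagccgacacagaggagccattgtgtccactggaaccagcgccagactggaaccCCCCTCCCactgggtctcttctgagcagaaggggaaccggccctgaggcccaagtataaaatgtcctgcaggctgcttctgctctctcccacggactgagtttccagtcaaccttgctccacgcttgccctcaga

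Sphk1, last start: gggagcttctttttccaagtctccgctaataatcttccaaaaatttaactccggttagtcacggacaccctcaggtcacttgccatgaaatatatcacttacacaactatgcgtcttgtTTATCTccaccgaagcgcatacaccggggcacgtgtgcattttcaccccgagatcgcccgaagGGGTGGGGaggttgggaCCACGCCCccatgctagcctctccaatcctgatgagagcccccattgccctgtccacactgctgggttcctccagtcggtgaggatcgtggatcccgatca

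The first window held 2 matches to CCNCNCCC and no GATA hexamer. The last held 2 such matches and 1 GATA hexamer, AGATAA on the minus strand, at position -131 from the start. The array probes do not show which start was used. Prpsap1 and Ube2o, the genes on each side of Sphk1, were not called between PreMegE and CFUe (0.69 and 0.70). Prpsap1 fell in Ter119 (-2.18), whereas Ube2o, a ubiquitin conjugating enzyme of late red cell precursors, rose in Ter119 (5.39 ± 0.18, SE, limma adjusted p = 7.56e-14).

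Other genes of sphingolipid metabolism and of sphingosine 1-phosphate transport and sensing moved in both directions between PreMegE and CFUe. Of 29 list genes other than Sphk1, 27 were tested, and 4 were called higher and 10 lower in CFUe than in PreMegE, where 9.96% of all probes were called higher and 14.7% lower. The list's median difference was -0.64, against 0.12 over all probes. By its bound, Plpp1, a phosphatase of lipid phosphates at the cell surface, was 88.3-fold higher in CFUe (0.24 ± 0.23) than in PreMegE (limma adjusted p = 6.73e-09). No PreMegE array was well above background for Plpp1. After normexp its difference was 3.48 on the log2 scale, against 6.46 here. Sgpl1, the lyase that degrades sphingosine 1-phosphate, was higher by 1.97 ± 0.14 (SE, limma adjusted p = 4.98e-09). The other 2 called higher, named after their values were seen, were Sgpp1, a phosphatase of sphingosine 1-phosphate (1.49), and Acer3, a ceramidase (1.46).

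The receptor S1pr1 and the exporter Spns2 moved the other way. S1pr1 read 1.17 ± 0.12 in PreMegE and -3.37 ± 0.84 in CFUe (-4.54 ± 0.30, SE, limma adjusted p = 3.24e-09). In Ter119, which also carried granulocytic and B cell markers, S1pr1 read 1.61 ± 0.26. The part of such signal in that level was not tested. Spns2 was at 4.27 ± 0.24 in PreMegE and at -0.02, -0.16 and 1.91 on the CFUe arrays (-3.69 ± 0.36, SE, limma adjusted p = 2.30e-07). Replicate 3, the CFUe array with the most granulocytic signal, held the highest CFUe level of both genes. Sphk2, the other sphingosine kinase, differed by 0.50 and S1pr4 by -0.89, and neither was called. No probe was matched for Mfsd2b, the red cell exporter.

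From CFUe to Ter119, 11 of the 27 were called higher and 8 lower, where 29.2% of probes were called higher and 28% lower (list median 0.46, all probes 0.05). Under spike-in scaling 6 were higher and 11 lower, and at the step before 2 were higher and 15 lower. Large rises by their bounds were those of Sgms2, a sphingomyelin synthase (74.1-fold), Cers6, a ceramide synthase (59.8-fold), and the receptor S1pr5 (21.7-fold). The receptor S1pr1 rose by 4.98 on the log2 scale. After normexp, Sgms2, Cers6 and S1pr5 rose by 3.02, 2.92 and 1.99 on the log2 scale. Sgms2, Cers6 and S1pr5 were not well above background in CFUe. Their levels in Mac1Gr1, the fraction with like granulocytic sums, were 1.58, 1.71 and -2.58, against -0.20, -0.26 and -1.97 in Ter119.

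On the list of fatty acid desaturation and elongation, 21 of 24 genes other than Fads3 were tested. Of these, 9 were called higher and 1 lower in CFUe than in PreMegE (median 0.63), against 9.96% and 14.7% of all probes. In Ter119 against CFUe 4 were higher and 12 lower (median -1.37), against 29.2% and 28% of all probes. Under spike-in scaling these counts were 4 and 1, then 2 and 16. Acsl6, an acyl-CoA synthetase, read -2.54 ± 0.35 in CFUe and was not well above background in PreMegE or Ter119. By their bounds these lay 17.1-fold below CFUe at the first step (limma adjusted p = 5.48e-04) and 8.19-fold below at the second. After normexp the differences of Acsl6 were 1.53 and -0.34 on the log2 scale. Hacd1, a dehydratase of fatty acid elongation, rose by 1.54 into CFUe and fell by 4.68 on the log2 scale into Ter119 (limma adjusted p = 1.17e-13). Acsl5 did likewise (1.36 and -3.29). Scd1, a desaturase of saturated fatty acids, was also called higher in CFUe and rose by 3.40 ± 0.46 (SE) from there into Ter119. Fads6 (2.12) and Acsl1 (1.21), named after their values were seen, were the others higher in Ter119, Acsl1 at -0.17 under spike-in scaling. Elovl7, an elongase, fell by 2.83 on the log2 scale into CFUe and rose by 4.33 into Ter119, with 3.59 ± 0.10 in Mac1Gr1.

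Cldn13 was high in CFUe and Ter119 and low, though detected, in KLS, PreMegE and Mac1Gr1. Its levels were -3.78, -3.24 and -2.34 in KLS, -2.99, -2.63 and -2.57 in PreMegE, 3.47, 3.77 and 3.46 in CFUe and 3.10, 4.13 and 4.10 in Ter119. They were -5.32, -5.33 and -6.02 in PreGM, -5.67, -5.81 and -5.02 in GMP and -3.63, -3.73 and -3.42 in Mac1Gr1. CFUe and Ter119 overlapped and stood above all other arrays, and only 1 of 3 arrays was well above background in PreGM and in GMP. The difference between PreMegE (-2.73 ± 0.23) and CFUe (3.57 ± 0.17) was 6.30, or 78.8-fold, which ranked 6th of 14318 genes, and Ter119 (3.78 ± 0.58) lay 0.21 above CFUe. Scaled to the spike-in probes instead, Ter119 lay 1.17 below CFUe.

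Among comparisons without CFUe, the largest for any of the 4 genes was Cldn13 in Ter119 against Mac1Gr1, which differed 165-fold (7.37 ± 0.33, SE), where 41.9% of probes were called. Ter119 exceeded KLS by 6.90 ± 0.33 (SE), where 50.3% were called, and here all 6 arrays carried Y-linked transcripts. PreMegE lay 0.39 above KLS, with overlapping arrays. It was lower in PreGM than in KLS (-2.44, limma adjusted p = 6.16e-05), though under 2-fold after normexp (-0.83). It did not differ between PreGM and GMP beyond that spread (0.06, limma adjusted p = 0.929), and was higher in Mac1Gr1 than in GMP (1.91, limma adjusted p = 6.14e-05), but not under spike-in scaling (-0.12). The last comparison called 56.7% of probes.

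Of the other claudins, Cldn10 alone was called higher in CFUe than in PreMegE. Of 30 other claudin and junction genes 19 were tested, and 1 was called higher and 8 lower in CFUe than in PreMegE (median 0.19, or 0.00 with undetected genes at their bound), against 9.96% and 14.7% of all probes. Cldn10, also a claudin, differed by 3.95 ± 0.51 (SE, limma adjusted p = 5.53e-06), which read -1.33 ± 0.17 in CFUe and -2.23 ± 0.23 in Ter119. F11r and Jam3, junctional adhesion molecules, fell, F11r by 3.80 on the log2 scale and Jam3 at least 6.87-fold. In Ter119 against CFUe 12 were called higher and 0 lower by limma, the latter with 3 at an adjusted p under 0.05 and no minimum fold. Of all probes 29.2% were higher and 28% lower there, and under spike-in scaling 3 list genes were higher and 6 lower. Cldn1 (39.0-fold by its bound, 2.38 on the log2 scale after normexp) and Cldn15 (5.14) led the rises. Both were higher still in Mac1Gr1 (0.25 and 3.70) than in Ter119 (-1.13 and 1.79). Cldn13 itself read -3.59 ± 0.16 in Mac1Gr1.

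The genes on each side of Cldn13 on chromosome 5, Tmem270 and Mettl27, were not called between PreMegE and CFUe (0.30 and -0.24). Over the 7 fraction means, the genes most like Cldn13 were Rhag (Pearson r = 0.989), Car7 (0.986), Rhd (0.984), Abcg4 (0.984) and Cyb5a (0.983). Rhag and Rhd are parts of the Rh complex of the red cell membrane, and Rhag was also on the erythroid marker list.

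**Figure D3:**
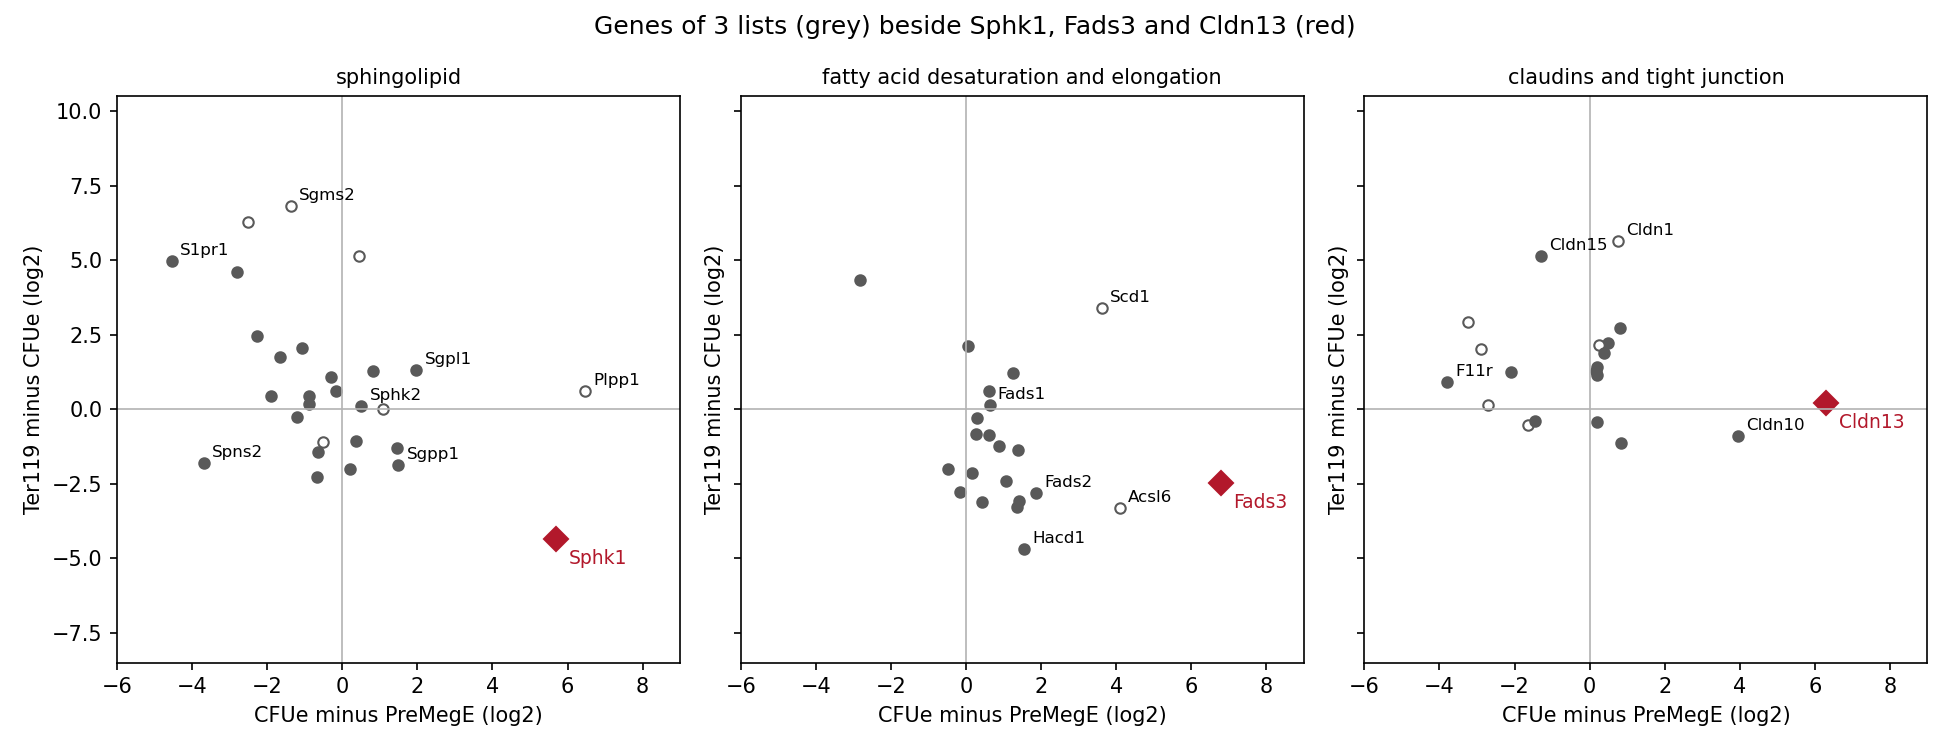
Log2 difference between CFUe and PreMegE (horizontal axes) against that between Ter119 and CFUe (vertical axes) for tested genes of 3 lists (circles, open where a fraction had no array well above background) and for Sphk1, Fads3 and Cldn13 (diamonds). Both axes share the CFUe arrays, which by itself tilts points from upper left to lower right. Sphk1 lies at 5.69 and -4.35, Fads3 at 6.79 and -2.47 and Cldn13 at 6.30 and 0.21.

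Arhgef25 was already present in KLS and PreMegE, was highest in CFUe and was low, though detected, in Ter119. Its levels were 1.11, 1.13 and 1.46 in KLS, 0.63, 0.81 and 0.98 in PreMegE, 3.83, 4.02 and 3.92 in CFUe and -2.84, -3.17 and -3.03 in Ter119. In PreGM they were -1.20, -1.02 and -0.73, in GMP -3.11, -3.01 and -1.83, and in Mac1Gr1 -3.86, -3.93 and -3.54. No array of another fraction came near the CFUe arrays, and Ter119, GMP and Mac1Gr1 lay lowest, with overlap between GMP and Ter119. From CFUe (3.92 ± 0.09) to Ter119 (-3.01 ± 0.17) it fell by 6.94 on the log2 scale, or 123-fold, the 11th largest of 14318 genes, while the rise from PreMegE (0.81 ± 0.17) was 3.12, or 8.67-fold, and ranked 109th.

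On the myeloid path Arhgef25 fell at the first 2 steps, and the third depended on the processing. PreGM lay below KLS by 2.22 ± 0.25 (difference -2.22, SE, limma adjusted p = 7.72e-06), and GMP was lower than PreGM (-1.66, limma adjusted p = 9.79e-05), in a comparison that called 10.4% of probes. Under spike-in scaling this second step was -0.65 and under 2-fold. The step to Mac1Gr1 (-1.13, limma adjusted p = 6.10e-04) rested on GMP replicate 3, without which it was -0.72 and under 2-fold. It was also under 2-fold with slide as a block (-0.79) and after normexp (-0.095). Spike-in scaling gave -3.16 for that step, where the median over all probes was -1.86. GMP replicate 3 also had the highest GMP level of Fads3 and Cldn13 and a higher mean log2 level of the erythroid markers (-3.11 against -3.93 and -4.05). Their summed level was not highest there (5.51 against 5.58 and 4.78). The means of the other marker lists were higher on that array too, such as B cell markers (-3.46 against -3.91 and -3.91). More of its spots were well above background (76.5% against 62.3% and 64.5%). Ter119 was 19-fold below KLS (-4.25 ± 0.25, SE) and above Mac1Gr1 by less than 2-fold (0.76). PreMegE lay below KLS by less than 2-fold (-0.43). Next to Arhgef25 on chromosome 10, Dtx3 was not called into CFUe (-0.03) and fell out of it (-2.55, limma adjusted p = 3.26e-08), and Slc26a10 was tested in no comparison.

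**Figure D4:**
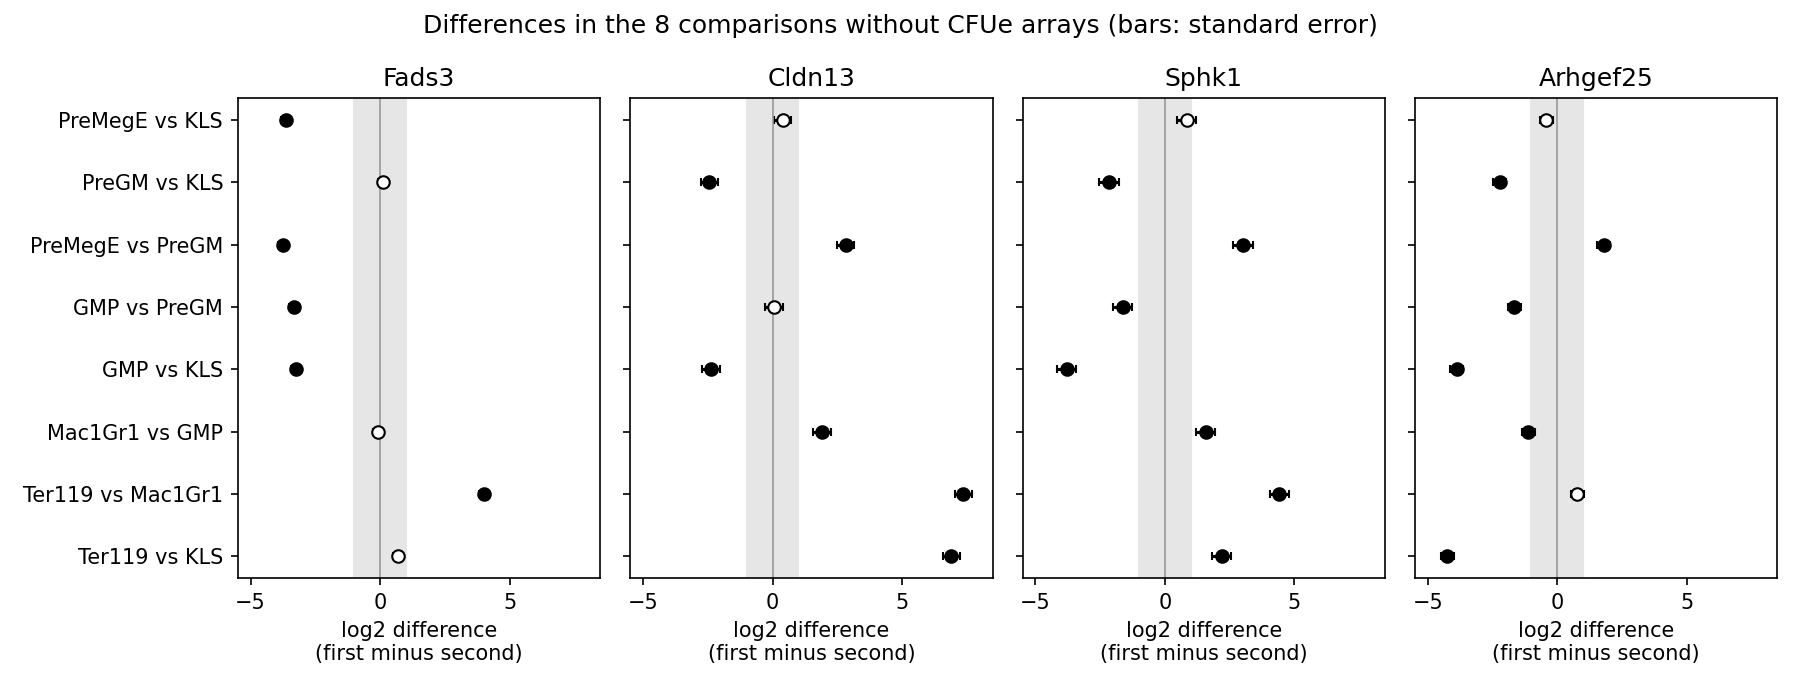
Log2 differences, first fraction minus second, with standard errors (horizontal axes) for Fads3, Cldn13, Sphk1 and Arhgef25 in the 8 comparisons without CFUe arrays (vertical axis). Comparisons with PreMegE or Ter119 are descriptions, since those fractions entered the choice of genes. KLS and GMP may have entered it too, through their comparisons with CFUe. Filled points passed limma at an adjusted p under 0.05 and at least 2-fold, open points did not, and the grey band spans less than 2-fold. In the comparisons with PreMegE or Ter119 the fill marks these thresholds alone and is not to be read as a test. In PreMegE vs PreGM, Fads3 lies at -3.74 and the other genes between 1.79 and 3.01.

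The 4 genes were also set beside each other. Over the 7 fraction means, Cldn13 and Sphk1 correlated most (r = 0.887), then Fads3 and Sphk1 (0.744) and Sphk1 and Arhgef25 (0.716), and Cldn13 and Arhgef25 least (0.332). These points share the CFUe fraction on which the genes were chosen. The genes most like Fads3 were Acnat1 (0.930), Prelid3a (0.892), Tmem109 (0.889), P4htm (0.882) and Sec14l2 (0.871), of which Acnat1 was above background on all 3 arrays in CFUe alone. Prelid3a was highest in Ter119 (-4.03, against -4.17 in CFUe) and P4htm in KLS (-0.80, against -1.18 in CFUe). Those most like Sphk1 were Ryk (0.991), Myh10 (0.984), Reep6 (0.977), Pcsk6 (0.977) and Clca3a2 (0.974), and Pcsk6 too was above background on all 3 arrays in CFUe alone. Those most like Arhgef25 were P4ha2 (0.990), Slc18b1 (0.978), Atp2c2 (0.977), Cartpt (0.974) and Zfp2 (0.973). A high r does not mean a large change, and Zfp2 ranged only from -2.34 in CFUe to -3.55 in Mac1Gr1.

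The first step on each path separated the 4 genes. Between PreMegE and PreGM, Fads3 was lower in PreMegE (-3.74), and Cldn13 (2.82), Sphk1 (3.01) and Arhgef25 (1.79) were higher there. The arrays of these fractions did not overlap for any of the 4, as for 42.7% of all probes. Set against PreGM replicate 3 alone, which like PreMegE carried Y-linked transcripts, the differences were -3.62, 3.29, 3.56 and 1.54. All 4 were also lower in GMP than in KLS, by 3.23 to 3.89 on the log2 scale for Fads3, Sphk1 and Arhgef25 (differences -3.23, -3.80 and -3.89) and by less for Cldn13 (-2.38), where 21.7% of probes were called. Less RNA per cell and fewer cells with the transcript cannot be told apart in sorted bulk fractions.

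Under spike-in scaling, which sets levels against added RNA in place of the array's own 75th percentile, the median difference over all probes was -0.39 between CFUe and PreMegE and -1.33 between Ter119 and CFUe. The differences of Fads3, Cldn13, Sphk1 and Arhgef25 into CFUe were then 6.27, 5.78, 5.17 and 2.60. Of the genes of the sphingolipid, fatty acid and claudin lists called higher in Ter119 than in CFUe, Sgpl1, Degs1, S1pr3, Acsl1, Cldn5, Cldn7 and Tjp3 turned sign under that scaling.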

How the data were processed

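Total RNA of each sorted fraction was amplified, labelled with Cy3 together with spike-in RNAs and hybridised to whole mouse genome arrays, per the labels. The deposited scanner files hold background-corrected spot intensities on a linear scale, which the authors made with Agilent Feature Extraction 10.7.1.1. The authors' series table holds log2 values with between-array normalization of unstated kind (column medians 6.15 to 6.23) and served as an alternative. The header build is mm9. Gene symbols came from RefSeq accessions in a table of GRCm38.p6, used for names.

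Outlier spots (80 to 283 of 43379 per array) were left out, no spot was saturated, and spots of a probe were averaged. Between 56.4% and 77.4% of spots were well above background, and the number of arrays limits the precision. limma 3.58.1 in R 4.3.3 (lmFit, eBayes, two-sided) was fitted once over all 21 arrays with a mean per fraction. Adjusted p values are Benjamini-Hochberg over 29538 probes within each of 8 comparisons without CFUe and 4 with it, and for the 4 genes they are printed only where neither PreMegE nor Ter119 is compared. The median residual SD was 0.262 with 14 degrees of freedom. Each of the 21 arrays was most like another from the same fraction. The fit was tested on simulated data.

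Genes were named by rule: the 4 genes with all probes, up to 5 called genes per list by size of change, fixed relatives, and the 5 genes most correlated with each over fraction means. The 4 genes and the lists were chosen with earlier results of these data known. 1 list is not reported here. Arrays fell on 9 slides and were scanned on 1 day. Alternatives were quantile scaling, spike-in scaling (7 of 10 sequences), normexp with an offset of 50, no filter on dim probes, slide and replicate blocks, the series table, a fit of the compared fractions alone, no minimum fold change, the other probe, and leaving out each array. Normexp on the median signal, a block for sex-chromosome transcripts and list counts without single arrays were added after seeing the data. Figures were drawn with Python and matplotlib (versions 3.11.15 and 3.10.9).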

Additional observations from a re-analysis of the deposited data

Results flagged for a closer look

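The first erythroid step, from KLS to PreMegE, and the first myeloid step, from KLS to PreGM, differed for each of the 4 genes. This is the difference between PreMegE and PreGM, in which the KLS arrays cancel. The PreMegE arrays entered the choice of the genes, so that this is a description and not independent support. For Fads3 the erythroid step was the lower by 3.74 (difference -3.74), and for Cldn13, Sphk1 and Arhgef25 it was the higher, by 2.82, 3.01 and 1.79 on the log2 scale. In each case the 3 PreMegE arrays did not overlap the 3 PreGM arrays, which held for 42.7% of all probes.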

How the results depend on the processing

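Of 528 re-run differences of the 4 genes in comparisons without CFUe, 495 kept their direction and their side of the threshold, 20 reversed, 8 lost the call and 5 gained it. The causes were not tested, except that dropping the minimum fold admits smaller changes. The re-runs include comparisons with PreMegE or Ter119, whose values entered the choice, and runs without 1 array. The share that was kept is therefore not a measure of support. Spike-in scaling gave, between PreGM and KLS, -0.52 for Fads3, between Mac1Gr1 and GMP, -2.12 (Fads3), -0.12 (Cldn13) and -0.47 (Sphk1), between Ter119 and KLS, -1.68 (Fads3) and -0.17 (Sphk1), between PreMegE and KLS, -0.073 (Cldn13), and between GMP and PreGM, 1.07 (Cldn13), -0.62 (Sphk1) and -0.65 (Arhgef25). It also put Cldn13 in Ter119 at -1.17 against CFUe. Normexp gave 0.72 (Fads3) and -0.095 (Arhgef25) between Mac1Gr1 and GMP, -0.83 (Cldn13) between PreGM and KLS and -0.25 (Cldn13) between GMP and PreGM. That last difference was also -0.027 after quantile scaling, -0.063 in the series table and -0.084 with a block for sex-chromosome transcripts. Fads3 between PreGM and KLS was -0.17 with slide as a block, -0.12 with a block for sex-chromosome transcripts and -0.0035 on the other probe. Slide as a block put Arhgef25 at -0.79 between Mac1Gr1 and GMP. On the other probe Fads3 differed by 0.57 between Mac1Gr1 and GMP, and Sphk1 by -0.60 there, by -0.018 between GMP and PreGM and by 1.42 between Ter119 and KLS. With no minimum fold, Fads3 between Ter119 and KLS (0.67) and Arhgef25 between Ter119 and Mac1Gr1 (0.76) were called.

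Leaving out single arrays moved Fads3 between Mac1Gr1 and GMP from -0.22 to 0.12, Cldn13 between GMP and PreGM from -0.18 to 0.21, Sphk1 between PreMegE and KLS from 0.52 to 1.42 and Arhgef25 between Mac1Gr1 and GMP from -1.36 to -0.72. Between PreMegE and KLS, a description for these genes, 1 to 2 of the 4 passed the thresholds, as did 12.4% of all probes with every array kept. The excess of CFUe over the next highest fraction was 2.17 (spike-in) and 1.57 (other probe) for Fads3, -0.67 (quantile) and 1.17 (spike-in) for Cldn13, 3.69 (quantile), 5.17 (spike-in), 3.82 (series table) and 5.0 (other probe) for Sphk1, and 2.29 (quantile), 1.71 (spike-in) and 2.32 (series table) for Arhgef25.

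Other counts over 1.5 times apart, CFUe against PreMegE, were 7 sphingolipid genes higher, and 15 fatty acid genes higher and 2 lower with no minimum fold, 3 claudin genes lower after normexp, and 2 claudin genes higher without PreMegE replicate 1. For Ter119 against CFUe they were 5 sphingolipid genes lower after normexp, and claudin genes lower in 3 (quantile), 1 (slide block), 3 (series table), 1 (fit of both fractions alone) and 3 (no minimum fold) cases.

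Same-numbered arrays of different fractions deviated together no more at the median (63 pairs, median r = 0.002, from -0.43 to 0.37) than differently numbered ones (126 pairs, 0.007). Of the same-numbered pairs 21 exceeded 0.1, as did 31 of the others, so that a shared origin of some arrays cannot be told from this. Pairs on the same slide had a median of 0.117, with 8 of 15 over 0.1. With the replicate number as a block no call moved, and Fads3 between PreMegE and KLS was -3.64. On slides that held both fractions, every called difference of the 4 genes kept its sign. Normexp on the mean signal was not run, since the files used here carry the median signal.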
